A study of Mus musculus with 4 samples.

Results

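Mouse femoral marrow that had been injected with saline was set beside femoral marrow that had not been injected, using single-cell transcriptomes of marrow stroma and marrow endothelium. The injected library, Sham_D40, came from femurs that received PBS and carries the label D40, day 40. The uninjected library, Ctrl, came from ungrafted mice at steady state. Both, like the 2 grafted libraries of the series, came from C57BL/6 mice of genotype Rag2-/-gammac-/-, so the injected and the uninjected marrow alike lacked Rag2 and the common cytokine receptor gamma chain. Such mice have no mature T, B or natural killer cells. In the grafted mice the injected cells were DOHH2, a human follicular lymphoma B-cell line, and libraries were made on day 19 (Graft_D19) and day 40 (Graft_D40). Femurs were flushed, cut and digested with enzymes, Cd45 and Ter119 positive blood cells were removed on beads, and Cd31-negative Cd51-positive Cd200-positive stromal cells and Cd31-positive Sca1-positive endothelial cells were sorted. Neither the ages nor the number of animals behind a library was given, and each group was 1 library, so differences between animals could not be estimated and no p-value is given.

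Members were cells of Sham_D40 and Ctrl with at least 500 genes, at least 1000 unique molecular identifiers (UMIs, each marking 1 captured RNA molecule) and at most 10% mitochondrial UMIs. Stroma was taken as cells with no Cdh5 UMI and with at least 20 Cxcl12, 10 Col1a2 or 20 Col2a1 UMIs per 10000. Endothelium was taken as cells with at least 1 UMI of Cdh5, the vascular cadherin, and fewer than 20 Col1a2 and Cxcl12 UMIs together per 10000. There were 7497 members among the 18543 cells kept in the 4 libraries. Stroma had 2364 cells in Ctrl and 2872 in Sham_D40, and endothelium had 1199 and 1062. Near the stroma thresholds, within 25% of at least 1 of them, lay 738 of 4151 kept cells in Ctrl and 658 of 4570 in Sham_D40. The libraries shared 11 cell barcodes. Rag2 was at 9.20 and 5.96 CPM in stroma, but 3' tags can lie outside the deleted part, so this checks nothing about the genotype.

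Marrow stroma that makes much Cxcl12 also expresses the leptin receptor and adiponectin, lies around the sinusoids and supplies stem cell factor (Kitl), Il7 and Cxcl12 to blood-forming cells. Marrow endothelium is mostly sinusoidal, with a fenestrated scavenging lining marked by Stab2, and in part arterial. Chondrocytes of growth plate and joint cartilage, marked by Col2a1 and Acan, and bone-forming cells are released from femurs together with the marrow when the bone is digested.

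The libraries differed in depth before any gene was compared. Ctrl held 18533482 gene UMIs and the other 3 libraries between 51744386 and 72204599. A kept cell had a median of 3587 UMIs and 1617 genes in Ctrl and 9047.5 UMIs and 3233 genes in Sham_D40. The gap was present in stroma, where the medians were 3535.5 and 9615.5 UMIs, and in endothelium, where they were 4494 and 8243. Levels below are the summed UMIs of a population scaled to a library total of 1000000 (CPM), in the order Ctrl then Sham_D40 unless said otherwise. A fold is followed by its exact 95% interval, which covers counting error only, and a call, higher or lower, needed a fold of at least 1.5 whose interval left out 1. Genes at a mean under 5 CPM were not tested.

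**Figure D1:**
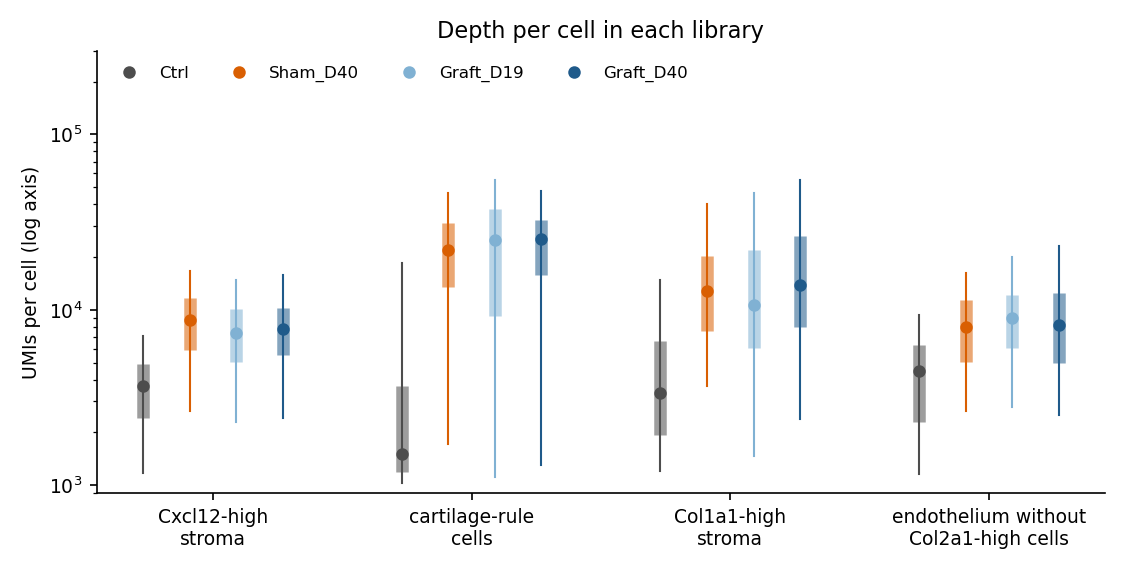
UMIs per cell (log axis) in 4 cell populations of the 4 libraries. Thin lines run from the 5th to the 95th percentile of cells, thick lines over the middle quartiles, and points mark medians. In cartilage-rule cells the Ctrl median was 1502 UMIs and the Sham_D40 median 21928.5, and in the Cxcl12-high stroma they were 3693.5 and 8696.5.

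A second difference ran through all genes. In stroma 2464 of 10785 genes tested were called higher in Sham_D40 (22.8%) and 1143 lower (10.6%). Tested protein-coding genes were ranked by their longest annotated transcript and cut into 10 bins of about equal number. Only protein-coding genes enter this and the length values below. The bin of shortest genes, of 204 to 1442 bases, had a median log2 ratio of -0.47, with 40.6% of its genes called lower. The bin of longest genes, at 7020 bases or more, had a median of 0.57, with 51.2% called higher. The slope was there in every population measured, from -0.55 to 0.67 in Cxcl12-high stroma, from -0.39 to 0.63 in cartilage-rule cells and from -0.49 to 0.60 in endothelium (taken, here and in the plots, without cells high in Col2a1, which are described with the endothelium). Between the 2 grafted libraries, which share no sample with Sham_D40 and Ctrl, the bins' medians in these populations lay between -0.04 and 0.14.

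The slope was also seen within a band of depth. Among Cxcl12-high stromal cells with 5000 to under 10000 UMIs, genes of at most 1500 bases took 25.8% of UMIs in 454 Ctrl cells and 16.8% in 893 Sham_D40 cells, while genes of at least 7000 bases took 5.81% and 9.98%. In endothelium of the same band the short genes took 28.4% and 20.6%. The bin of shortest genes held 23.7% of the UMIs of Cxcl12-high stroma in Ctrl. In Sham_D40, Graft_D19 and Graft_D40 it held 17.2%, 17.4% and 18.03%, so Ctrl stood apart in this population. From Ctrl to Graft_D40 in this order it held 27.5%, 20.5%, 22.8% and 24.2% in endothelium. In cartilage-rule cells it held 33.2%, 29.0%, 27.9% and 31.3%. Over the whole stroma gate Ctrl, at 25.2%, lay below Graft_D40, at 26.9%. Ribosomal protein genes, nearly all short, went from 7.10% to 4.87% of UMIs in Cxcl12-high stroma and from 14.2% to 9.70% in endothelium. The rRNA-like transcripts Gm42418, AY036118 and Gm26917 went the other way, from 1.16% to 4.43% in Cxcl12-high stroma. What set this slope was not tested, and with 1 library a group it cannot be told apart from the injection. Several gene lists below are therefore also given after the median of a gene's own length bin was subtracted. This step is called length centring and its values length-centred, and the other lists are given without it. After that step 978 stroma genes (9.39% of the 10416 protein-coding genes with a length) were called higher and 999 (9.59%) lower, so the share of calls that were higher went from 68.3% to 49.5%. In endothelium 2330 of 10418 genes were called higher (22.4%) and 959 lower (9.21%), and 990 (9.85%) and 783 (7.79%) after length centring. There the share of calls that were higher went from 70.8% to 55.8%, and to 56.5% when the libraries were scaled by their median gene ratio, which shifts all endothelial log2 ratios by 0.11.

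**Figure D2:**
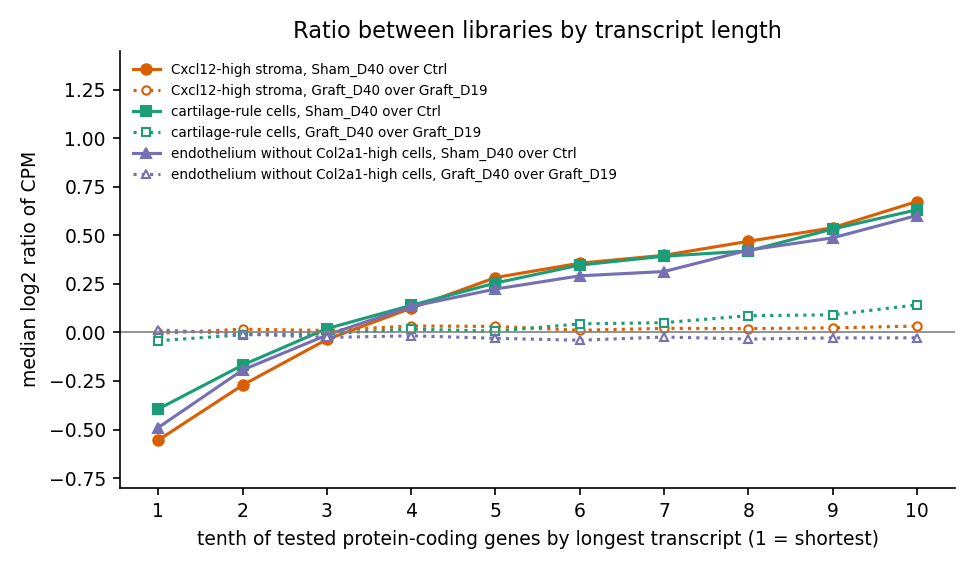
Median log2 ratio of the genes in each of 10 bins of transcript length, from shortest to longest, in Cxcl12-high stroma, cartilage-rule cells and endothelium. Solid lines are Sham_D40 over Ctrl and dotted lines Graft_D40 over Graft_D19. The solid lines climb from -0.55, -0.39 and -0.49 at the shortest genes to 0.67, 0.63 and 0.60, while the dotted lines stay between -0.04 and 0.14.

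The makeup of the gates also shifted. Stroma was 56.9% of kept cells in Ctrl (exact 95% interval 55.4 to 58.5) and 62.8% in Sham_D40 (61.4 to 64.2), and endothelium 28.9% and 23.2%. With every cell thinned to 1000 UMIs the shares were 61.6% and 70.3% for stroma and 18.7% and 15.3% for endothelium. Within stroma, cells with at least 20 Col2a1 UMIs per 10000, called cartilage-rule cells here, went from 241 cells (10.2%) to 368 (12.8%), but from 11.4% to 25.5% of the gate's UMIs. Cxcl12-high cells, with Col2a1 and Col1a1 both under 20 per 10000, went from 1938 cells (82.0%) to 2118 (73.7%). Cells with high Col1a1 went from 135 (5.71%) to 283 (9.85%). The sort fixes what enters these shares, and whether the injection moved them was not tested. A sum over the whole stroma gate thus weighs cartilage more in Sham_D40, and the populations are described separately.

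Over the whole stroma gate the 10 genes that led the higher calls were Msmp, Prg4, Cilp, Creb5, Fn1, Angptl7, S100a4, Meg3, Cilp2 and Fosb. Prg4, which encodes the joint lubricant lubricin, was at 210 CPM in Ctrl and 1900 in Sham_D40, 9.06-fold higher (8.66 to 9.47). Cilp, a cartilage matrix protein of the intermediate layer, was at 78.6 and 675 CPM. Fn1, fibronectin, was at 383 and 2319 CPM. Msmp stood at 33.2 and 387 CPM, but 10 cells held 97.7% of its Sham_D40 UMIs and all of it in Ctrl came from 4 cells. In Cxcl12-high stroma, described next, Prg4 was at 30.4 and 185 CPM, Fn1 at 17.4 and 204, Cilp at 4.44 and 17.0 and Cilp2 at 0.404 and 0.831. In 292 Ctrl and 341 Sham_D40 cells that passed the Cxcl12 threshold and neither the cartilage rule nor a rule on bone genes, the log2 ratios of Cilp, Meg3 and Cilp2 were -0.53, -0.70 and -0.87. Fosb, an immediate early transcription factor, was at 91.1 and 484 CPM in the gate and was called higher in every stromal population described below.

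Among the 10 genes that led the lower calls in stroma were Gstp1, Hist1h2ap, Hist2h2aa1, Bloc1s1, Erh, Polr2l, Ccl19, Snhg9 and Sap18. Gstp1, a glutathione transferase, was at 356 CPM in Ctrl and 11.4 in Sham_D40, and at 47.5 and 24.3 in Graft_D19 and Graft_D40. It was low in Sham_D40 in endothelium too, at 239 and 8.32 CPM. Its 3' end shares words of 48 bases with other genes over 53.5% of its last 300 bases, and whether the counting of shared reads set these values was not tested. For Ccl19 this share was 64.2%, and it is not counted among the niche factors below. The share was 100% for Hist1h2ap and Hist2h2aa1, 40.5% for Erh and 40% for Sap18. It was 11.5% for Polr2l, 6.1% for Bloc1s1 and 0% for Snhg9. Genes that share over 40% of this end had a median log2 ratio of -0.34 in stroma, with 35.2% of 182 called lower, against 0.22 and 8.87% among 8080 genes that share none. They are also shorter, at a median of 1655.5 bases against 3571, and once length-centred the medians were -0.16 and 0.01. In Ctrl 10 cells held 92.4% of the Hist1h2ap UMIs.

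Cxcl12-high stroma was the largest population, and some of its identity genes were not called. Adiponectin (Adipoq) was at 3130 and 2919 CPM, the leptin receptor (Lepr) at 1557 and 2049.5, and stem cell factor (Kitl) at 2052 and 2675, none of them called. Others were: Lpl was called higher, at 2742 and 4941 CPM, and Hp, haptoglobin, lower, at 8206 and 5389.9 CPM, and neither once length-centred. Of 10489 genes tested here, 2733 were called higher (26.1%) and 1150 lower (11%), and 628 (6.22%) and 950 (9.4%) after length centring. Between the 2 grafted libraries 3.39% were called higher and 2.17% lower at day 40. Beside these shares, 5 of 19 measured niche factors were called higher and 4 lower, with a median log2 ratio of 0.42 against 0.23 for all genes tested, and 0.06 once length-centred. Il7, the lymphoid growth factor, was at 106 and 171 CPM, and Ebf3, a transcription factor that keeps these cells in their niche state, at 737 and 1232 CPM. Both were under 1.5-fold after length centring. Lgr5 was lower, at 92.4 and 47.7 CPM.

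Several immediate early genes were higher in Cxcl12-high stroma of injected marrow. These genes encode short-lived transcription factors and their brakes and are switched on within minutes by growth factors or stress. Of 22 measured, 7 were called higher and 0 lower, and 8 and 0 after length centring, with medians of 0.44 and 0.39. Of all genes tested 26.1% were called higher, and 6.22% after length centring. Fosb, on chr7:19302696-19310051 of the minus strand in GRCm38, was at 33.1 CPM in Ctrl and 275.6 in Sham_D40, 8.33-fold higher (7.33 to 9.50). Egr1, an early growth response zinc finger factor, was at 167 and 627 CPM, 3.76-fold higher (3.54 to 3.99). Btg2, an antiproliferative target of p53, was at 37.5 and 138 CPM, 3.69-fold higher (3.26 to 4.19). Klf4 was at 22.1 and 64.4 CPM, Jun at 223 and 467 and Fos at 339 and 611, whereas Ier3 stood at 42.2 and 39.2 CPM and Jund, a constitutive Jun relative, at 590.1 and 541. The grafted libraries had Fosb at 347 and 186 CPM, Egr1 at 771 and 663 and Jun at 801 and 715, so Ctrl was the lowest of the 4 libraries for each of these 3 genes.

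The same genes were compared within bands of depth, since Sham_D40 cells were deeper. In cells of 1000 to under 2500 UMIs, Egr1 was at 141 CPM in 516 Ctrl cells and 591 in 93 Sham_D40 cells, and at 5000 to under 10000 UMIs at 104.5 CPM in 454 cells and 633 in 893. Fosb was at 28.7 and 217 CPM in the shallowest band and at 14.1 and 284 in the band from 5000 UMIs. The 13 Ctrl cells of 10000 UMIs or more had 159 CPM of Fosb and 741 of Egr1, the latter above the 659 of Sham_D40, and 194 CPM of Btg2 against 138, so the order did not hold among the few deepest Ctrl cells.

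Promoters of Fosb and Btg2 are printed because these are among the genes with the highest ratios on the list and each carries a cyclic AMP response element or a part of it, the site that CREB-family factors bind. The capitals mark that match, each run is 250 bases before to 50 bases after the annotated start, read 5' to 3' on the gene's strand, from RefSeq on GRCm38.p6. The Fosb promoter lies at chr7:19309996-19310295 and the Btg2 promoter at chr1:134079106-134079405, both on the minus strand.
Fosb: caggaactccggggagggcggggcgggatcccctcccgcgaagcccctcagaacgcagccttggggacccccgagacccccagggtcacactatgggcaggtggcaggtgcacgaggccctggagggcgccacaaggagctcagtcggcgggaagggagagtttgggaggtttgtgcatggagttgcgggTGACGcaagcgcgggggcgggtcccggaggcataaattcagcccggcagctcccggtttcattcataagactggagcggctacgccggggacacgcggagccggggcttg
Btg2: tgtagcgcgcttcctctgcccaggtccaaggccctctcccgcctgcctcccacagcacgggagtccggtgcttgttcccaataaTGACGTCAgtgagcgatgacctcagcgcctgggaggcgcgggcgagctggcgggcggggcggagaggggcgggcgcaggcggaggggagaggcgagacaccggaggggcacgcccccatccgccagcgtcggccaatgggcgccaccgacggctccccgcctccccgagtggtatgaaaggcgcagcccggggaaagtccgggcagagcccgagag
In Fosb the match is TGACG, starting 60 bases before the start, and in Btg2 the whole palindrome TGACGTCA, starting 166 bases before it. Of the 34 list genes 28 had a RefSeq promoter, and 4 held TGACGTCA (Btg2, Dusp1, Maff and Ppp1r15a). The share over 32544 mouse promoters was 1.801%. A list gene counted if any of its promoters matched, while the share is over single promoters, so count and share are unlike measures. The shorter TGACG on either strand, which the palindrome contains, was in 18 of the 28 and in 20.91% of all promoters. The CArG box of serum response factor was in 3 of the 28, namely Dusp5, Egr2 and Zfp36, and in 1.641% of all promoters. A match is only these letters in this window. Dusp1, with the palindrome, was at 73.1 and 108 CPM and not called.

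**Figure D3:**
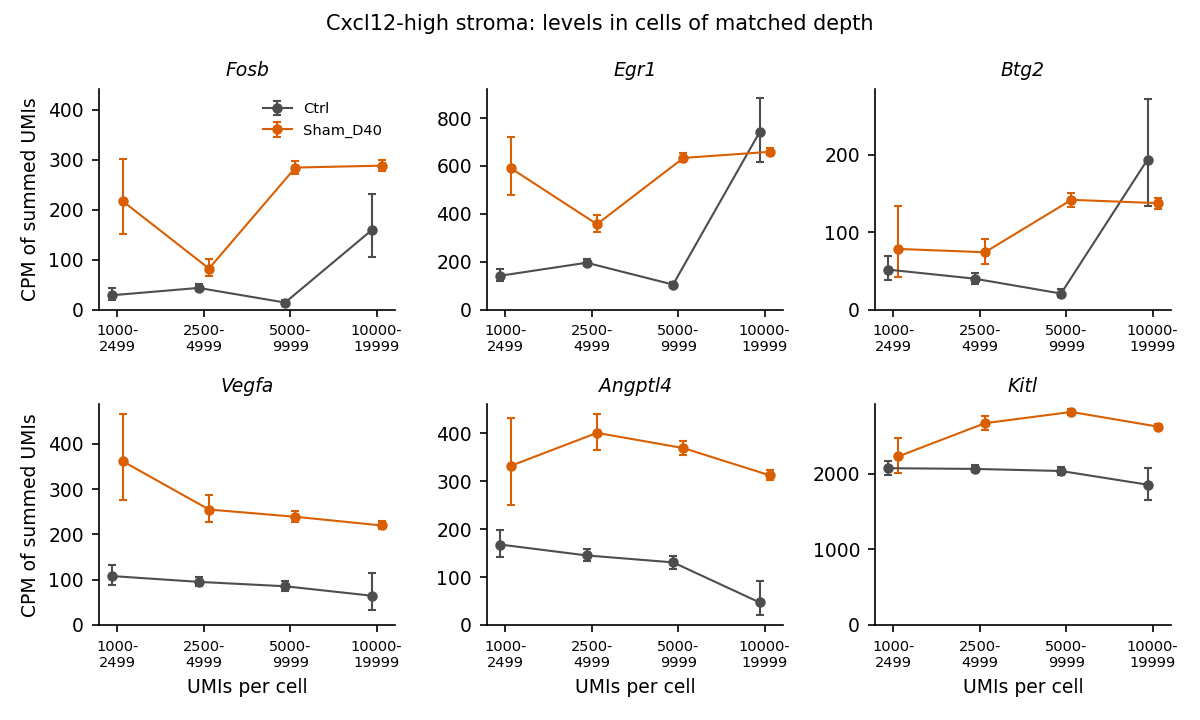
CPM of Fosb, Egr1, Btg2, Vegfa, Angptl4 and Kitl in Cxcl12-high stroma by band of UMIs per cell (starting at 1000, 2500, 5000 and 10000), with exact Poisson 95% intervals, in Ctrl and Sham_D40. Vegfa and Angptl4 lie higher in Sham_D40 in all 4 bands, while the points of Egr1 and Btg2 do so in the first 3, with Ctrl above in the deepest band, which has 13 Ctrl cells.

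A pair of secreted factors was higher in each of the 4 bands. Vegfa, the main growth factor of endothelium, was at 92.3 CPM in Ctrl and 229 in Sham_D40, 2.48-fold higher (2.29 to 2.69), with 139 and 184 in the grafts. Angptl4, a lipoprotein lipase inhibitor, was at 140 and 332 CPM, 2.37-fold higher (2.22 to 2.53), with 164 and 135 in the grafts. Within the bands Vegfa ranged from 64.7 to 108 CPM in Ctrl and from 220 to 362 in Sham_D40, and Angptl4 from 47.0 to 168 and from 312 to 401. Both are hypoxia-responsive, and whether hypoxia had a part was not tested. On the glycolysis and hypoxia list, 7 of 23 measured members were called higher and 3 lower, with a median of 0.00. Of all genes 26.1% were called higher and 11% lower. Once length-centred 2 members were called higher and 4 lower. Adm, adrenomedullin, another hypoxia-responsive gene, was 3.84-fold lower (3.22 to 4.58), at 42.6 and 11.1 CPM.

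Genes of the fat programme split. Of all genes tested 26.1% were called higher and 11% lower, with a median of 0.23. Of 19 adipogenic genes 3 were called higher and 4 lower once length-centred. Without centring 7 were called higher and 3 lower, with a median of 0.19. Lpl, which frees fatty acids from lipoproteins, was among them, as was Cebpa, a transcription factor of adipocyte identity, which was at 127 and 226 CPM. Fabp4, the fatty acid binding protein, was instead 2.80-fold lower (2.66 to 2.95), at 408 and 145 CPM, and Cebpb 2.76-fold lower, at 236 and 85.6 CPM. Fabp4 was lower in each band of depth too, from 1110.1 to 555 CPM in the shallowest cells and from 291 to 156 in the band from 5000 UMIs. Fabp4 is among the most abundant endothelial RNAs here. In the whole stroma gate, endothelium-defining genes stood at up to 2.05% of their endothelial level. Whether free RNA at such a level sets the stromal Fabp4 values was not tested. The 8 measured endothelium-defining genes were all called lower in these cells, with a median log2 ratio of -0.996, and 42 stromal cells of Ctrl and 11 of Sham_D40 carried at least 20 endothelial marker UMIs per 10000.

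Oxidative metabolism and stress defence genes were lower. All 40 nuclear genes of the respiratory chain were measured and 35 were called lower and 0 higher, with a median of -0.74. Of all genes 11% were called lower, and 48.6% in the bin of shortest genes. After length centring 10 of the 40 were called lower, with a median of -0.26, where 9.4% of all genes were. Of 18 metallothionein and oxidative stress genes 8 were called lower and 2 higher, and 6 and 1 once length-centred. Mt1, a metallothionein that binds zinc and copper, was at 448 and 178 CPM, and Ftl1, the light chain of the iron store ferritin, at 3887 and 1755 CPM. Their length-centred log2 ratios were -0.77 and -0.59.

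Matrix genes depended on the length slope. All 6 measured fibrillar collagens and 9 of 10 other collagens were called higher in Cxcl12-high stroma, with medians of 0.85 and 0.83. Of all genes 26.1% were called higher, and 6.22% once length-centred. Once length-centred 1 fibrillar and 0 other collagens were called, with medians of 0.25 and 0.31. Col5a3, a chain of collagen V, kept its call, at 58.1 and 146 CPM, while Col4a1, a basement membrane collagen, at 342 and 655 CPM, did not. Cartilage genes were higher by both measures, 15 of 18 without and 13 with centring. Their level was small: 12 chondrocyte markers were at a median of 0.2495% of their own cartilage-rule level in Ctrl and 0.680% in Sham_D40, and in endothelium at 0.110% and 0.733%. The share of stroma UMIs that came from cartilage-rule cells was 11.4% and 25.5%. Its part in these levels, and that of free RNA, was not tested.

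Interferon and antigen presentation genes showed no shared direction in these cells. Of 36 interferon-stimulated genes 8 were called higher and 7 lower, with a median of -0.04. Once length-centred 2 were called higher and 6 lower, with a median of 0.01. Of all genes 26.1% were called higher and 11% lower, and 6.22% and 9.4% once length-centred. Iigp1, an immunity-related GTPase, was at 172 and 325 CPM, and Ifitm3, a short membrane protein gene that blocks virus entry, at 3841 and 2063 CPM. The latter call was lost with length centring. Blood cell markers were lower, 4 of 5 measured erythroid and 6 of 6 myeloid genes, which the bead depletion and sort act on. No lymphoid marker reached the minimum level.

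**Figure D4:**
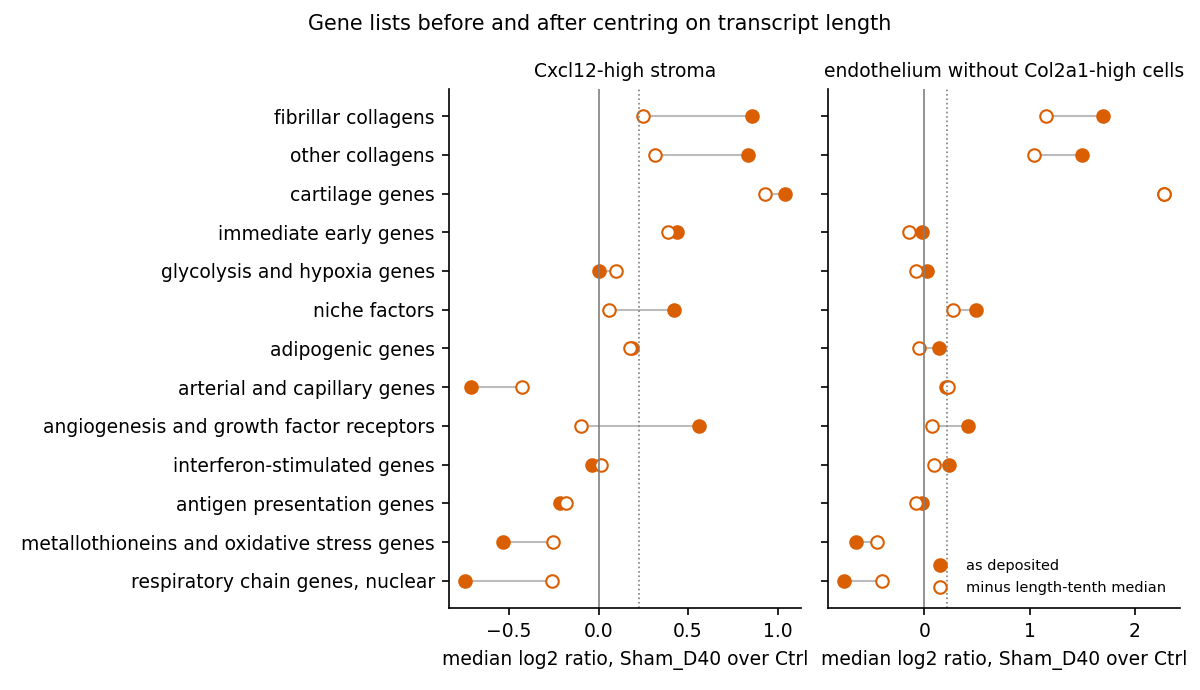
Median log2 ratio, Sham_D40 over Ctrl, of selected gene lists in Cxcl12-high stroma and in endothelium without Col2a1-high cells. Filled points are the ratios as measured, open points the length-centred ones, and the dotted line is the median of all genes tested (0.23 and 0.22). Immediate early genes of Cxcl12-high stroma stay at 0.44 and 0.39, while fibrillar collagens go from 0.85 to 0.25 there and respiratory chain genes from -0.74 to -0.26.

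Prg4 and Cilp were higher in the cartilage-rule cells of injected marrow. Of 9965 genes tested 1985 were called higher (19.9%) and 805 lower (8.08%), and 7.98% and 8.86% after length centring. Prg4, on chr1:150449412-150466165, was at 592 CPM in Ctrl and 5366 in Sham_D40, 9.06-fold higher (8.38 to 9.81), with 3944 in Graft_D19 and 1301 in Graft_D40. It was found in 14 of 241 Ctrl cells and 199 of 368 Sham_D40 cells, and 10 cells held 99% of its Ctrl UMIs. Cilp was at 203 and 1695 CPM, 8.36-fold higher (7.32 to 9.61), with 509 and 235 in the grafts. Sham_D40 was the highest of the 4 libraries for both genes.

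Shares of cells with Prg4 or Cilp gave the same order at a fixed depth. After thinning to 1000 UMIs, Prg4 was seen in 2.67% of cartilage-rule cells in Ctrl and 26.2% in Sham_D40, against 1.41% and 6.17% of endothelial cells, which should lack it. Before thinning these shares were 5.81% and 54.1% in cartilage-rule cells and 4.34% and 28.7% in endothelium, with median depths of 1502 and 21928.5 UMIs in the former and 4494 and 8243 in the latter. Thinned shares of Cilp were 3.44% and 23.4%, and of Clu, the secreted chaperone clusterin, 8.40% and 25.5%. Clu was at 336 and 1488 CPM. By band of depth, Prg4 was at 266 and 4075 CPM in cells of 1000 to under 2500 UMIs, with 168 and 23 cells, and at 970 and 13457 CPM in cells of 10000 to under 20000 UMIs, with 38 and 91 cells.

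Other secreted and matrix genes of these cells were higher as well. Proteoglycans had 10 of 15 measured members called higher and 1 lower, with a median of 0.81, and 0.63 once length-centred. Dcn, decorin, which binds collagen fibrils, was at 1035 and 3804 CPM, 3.68-fold higher (3.46 to 3.91). Ccn2, a matricellular target of TGF-beta and of YAP, was at 348 and 1176 CPM, and Cytl1, a cytokine-like factor of cartilage, at 3386 and 7595 CPM. Vegfa was at 68.8 and 245 CPM, 3.57-fold higher (2.83 to 4.56). Of all genes tested 19.9% were called higher and 8.08% lower. On the glycolysis and hypoxia list 8 of 25 were called higher and 1 lower once length-centred. Without centring 10 were called higher and 0 lower, with a median of 0.42 against 0.22 for all genes. Among them Pdk1, which diverts pyruvate from mitochondria, was at 23.2 and 59.3 CPM, Slc16a3, a lactate exporter, at 29.7 and 70.7, and Ddit4, a stress-induced inhibitor of mTORC1, at 53.9 and 130.4 CPM.

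The genes that define cartilage did not share this rise. On the cartilage list 2 of 28 were called higher and 6 lower, with a median of 0.05. Aggrecan (Acan) was at 1941 and 2568 CPM, Col9a2, a chain of collagen IX, at 1622 and 1935, and Comp, a cartilage oligomeric matrix protein, at 4607 and 6549 CPM, none of them called. Matn3, a matrilin of the growth plate, was at 1032 and 841 CPM and not called. Growth plate hypertrophy genes were uneven: Col10a1 was at 875 and 1207 CPM, all of it in Ctrl from 12 cells, and Panx3, a channel protein of hypertrophic chondrocytes, at 406 and 213 CPM, 1.91-fold lower (1.71 to 2.12). Matn1 was 7.48-fold lower, at 34.4 and 4.598 CPM, with 92% of its Ctrl UMIs in 10 cells. Of 29 measured cell cycle genes 3 were called higher and 10 lower, and of 29 immediate early genes 7 and 5. Once length-centred these counts were 1 and 10, and 6 and 4. Of all genes 19.9% were called higher and 8.08% lower.

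Ctrl cartilage-rule cells were shallow, with 176 of 241 under 3000 UMIs against 27 of 368 in Sham_D40. Among cells of 3000 UMIs or more Prg4 was at 699 and 5379 CPM, 7.69-fold higher (7.09 to 8.37), Cilp 6.73-fold (5.87 to 7.76), Dcn 3.24-fold (3.04 to 3.46) and Vegfa 3.41-fold (2.63 to 4.51). Fn1 was then 5.51-fold higher (5.16 to 5.89), at 1089 and 5998 CPM, against 2.42-fold (2.32 to 2.51) with all cells. In the cells of 1000 to under 2500 UMIs Fn1 had the other order, at 7445 and 3195.5 CPM. Matn1 and Panx3 were still called lower among cells of 3000 UMIs or more.

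**Figure D5:**
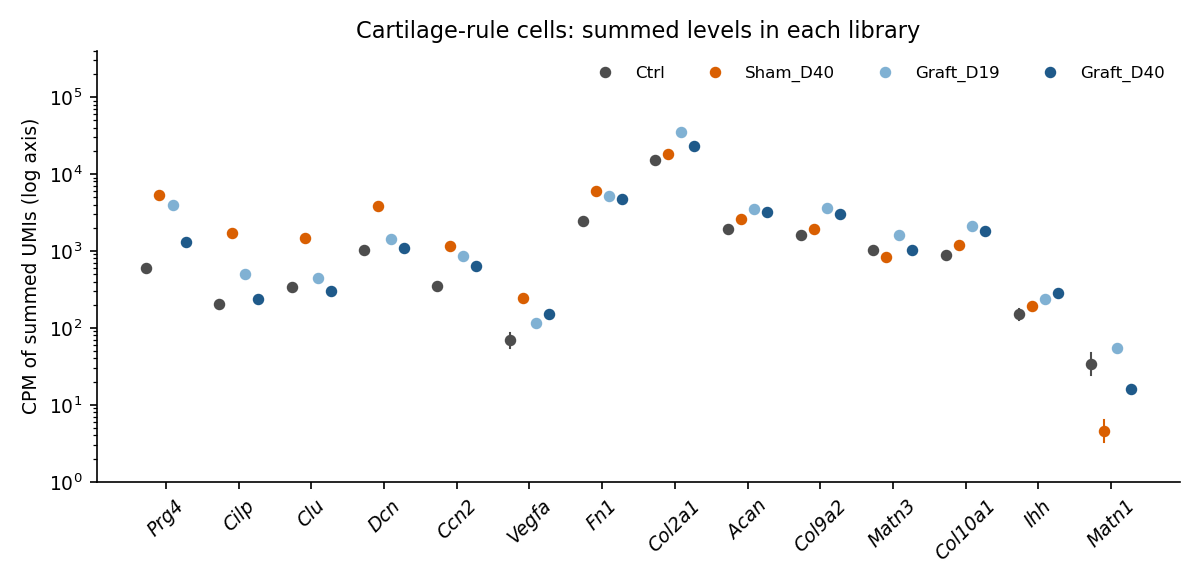
CPM of 14 genes in cartilage-rule cells of the 4 libraries, over all depths, with exact Poisson 95% intervals for counting error. Prg4, Cilp, Clu, Dcn, Ccn2, Vegfa and Fn1 are highest in Sham_D40, and Acan, Col9a2 and Matn3 are higher in Graft_D19 than in Sham_D40.

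Cells with high Col1a1, 135 in Ctrl and 283 in Sham_D40, had Col3a1 and Fn1 higher and osteocalcin, osteopontin and bone sialoprotein lower. Of 10202 genes tested 20% were called higher and 6.69% lower, and 7.69% and 9.23% after length centring. Col3a1, a collagen of soft tissue, was at 1297 and 5326 CPM, 4.10-fold higher (3.84 to 4.39), and Fn1 at 697 and 3840 CPM. Osteocalcin (Bglap), the protein of mature osteoblasts, was at 26573 and 9037 CPM, osteopontin (Spp1) at 43460.0 and 13831 and bone sialoprotein (Ibsp) at 12520.2 and 7193 CPM. Of 24 bone formation genes 2 were called higher and 11 lower, with a median of -0.52, and of 26 contractile and activated-fibroblast genes 6 and 4, with a median of 0.15 against 0.30 for all genes. Of 28 measured immediate early genes 6 were called higher and 10 lower, with a median of -0.32. Col1a1 itself, which chose the cells, was at 35023 and 38853 CPM. In Ctrl 10 cells held 92% of the Bglap UMIs and 80% of the Col3a1 UMIs, and without the 10 highest cells of each library the log2 ratio of Bglap was 0.04.

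The endothelial gate of Sham_D40 held more cells that were not endothelial by their markers. Cells with at least 20 Col2a1 UMIs per 10000 numbered 9 in Ctrl and 36 in Sham_D40, but made up 2.43% and 10.0% of the gate's UMIs. They had exactly 1 Cdh5 UMI in 7 of 9 and 28 of 36 cases, and a median of 0.818 and 0.474 endothelial marker UMIs per 10000 against 83.5 and 110.2 in the gate. Prg4 was at 21.7 and 983 CPM in the whole gate, and at 22.2 and 466 CPM without these cells. The values that follow leave these cells out, and endothelium then had 1190 cells in Ctrl and 1026 in Sham_D40. Of 10246 genes 22.8% were called higher and 9.52% lower, and 785 (7.95%) and 789 (7.99%) after length centring. Between the grafted libraries 6.87% were called higher and 5.52% lower at day 40.

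Some receptors for vascular growth factors were higher in the endothelium of injected marrow. Of 27 angiogenesis and growth factor receptor genes 11 were called higher, where 22.8% of all genes were, and 1 lower, with a median of 0.42 against 0.22 for all genes. Once length-centred 6 were called higher and 0 lower, with a median of 0.08. Flt1, the decoy-like Vegf receptor, was at 507.5 CPM in Ctrl and 1044 in Sham_D40, 2.06-fold higher (1.97 to 2.15), with 1095 and 1066 in the grafts. Nrp1, a Vegf co-receptor, was at 283 and 539 CPM, and Ptprb, the phosphatase that restrains Tek signalling, at 754 and 1401 CPM. Kdr, the main signalling Vegf receptor, was at 1189 and 1589 CPM and not called. Nrp1 kept its call once length-centred and Flt1 and Ptprb did not.

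Sinusoidal and arterial genes had medians near or under that of all genes tested, 0.15 and 0.21 against 0.22. Of 18 sinusoidal genes 2 were called higher and 1 lower, and 2 and 4 once length-centred, and Stab2, the hyaluronan scavenger receptor, was at 1280.2 and 1276 CPM. Of 26 arterial and capillary genes 10 were called higher and 2 lower, with 22.8% of all genes called higher, and 7 and 1 once length-centred. Gja4, the arterial connexin 37, was at 10.2 and 24.8 CPM, and Vwf, von Willebrand factor, at 15.1 and 40.2 CPM. Cells of the artery rule went from 11.1% to 17.98% of the gate and cells of the sinusoid rule from 86.7% to 76.3%. Thinned to 1000 UMIs these shares were 12.7% and 14.8%, and 81.1% and 78.5%, closer than before.

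Among the 10 leading higher calls of the whole endothelial gate were Prg4, Col15a1, Syne1, Kcnq1ot1, Lmna, Vim, Ehd4, Cd34 and Hist1h4d, and among the 10 leading lower calls Gstp1, Trim37, Polr2l, Bloc1s1, Erh, Snhg9, Tmsb10, Cirbp and Cebpb. Several of the former differed by vessel type. Cd34, a sialomucin of arteries and capillaries, was at 38.5 and 123 CPM in endothelium, 18.6 and 46.7 within the sinusoid rule and 341 and 579 within the artery rule. Vim, the intermediate filament vimentin, was at 303 and 1095 CPM in endothelium, at 197 and 277 in sinusoid-rule cells, where it was not called, and at 1911 and 4924 in artery-rule cells. Lmna, the nuclear lamin of stiff tissue, was at 24.6 and 39.3 CPM in sinusoid-rule cells and at 227 and 647 in artery-rule cells. In artery-rule cells Mgp, matrix Gla protein, was at 598 and 7634 CPM, and over the endothelium 10 cells held 82% of its Sham_D40 UMIs. The share of artery-rule cells also differed between the libraries, and its part in the endothelial values of Vim and Lmna was not tested.

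Collagen genes were called higher in the endothelium, and the calls held in part with length centring. Of 10 measured other collagens 9 were called higher, with a median of 1.5003 (1.05 length-centred, with 6 calls), as were 6 of 6 fibrillar collagens, at 1.70 (1.16). Of all genes 22.8% were called higher, and 7.95% once length-centred. Of 10 stroma-defining genes 5 were called higher and 0 lower here, and Dcn was at 18.1 and 268 CPM. The part of RNA from other cells in the collagen calls was not tested. Col15a1, a collagen around small vessels, was at 7.17 and 54.7 CPM, 7.62-fold higher (5.51 to 10.8), with 77.4 and 177 in the grafts. Col18a1, the source of endostatin, was at 12.4 and 44.6 CPM, and Col4a1 at 311 and 614 CPM. For Col15a1 the values were 1.76 and 15.0 CPM in sinusoid-rule cells and 85.9 and 298 in artery-rule cells. The 17 measured cartilage genes were all called higher in this endothelium, at a median log2 ratio of 2.27, and the level of the chondrocyte markers relative to cartilage-rule cells is given above.

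Single stress genes of the endothelium differed in direction. Hsph1, a co-chaperone of the heat shock response, was at 7.35 and 35.0 CPM, and Hspa8, the constitutive Hsp70, at 742 and 1335 CPM. Of 24 heat shock and unfolded protein genes 6 were called higher and 1 lower, a share near the 22.8% of all genes. Immediate early genes did not share a direction here: of 30 measured 5 were called higher and 7 lower, with a median of -0.02. Klf4, which shear stress induces in endothelium, was at 327 and 647 CPM and Fosb at 169 and 387 CPM. Fos was 1.61-fold lower (1.56 to 1.66), at 1544 and 958 CPM, and Ier3 2.33-fold lower, at 195 and 83.5 CPM. Within sinusoid-rule cells Fos was at 1656 and 1076 CPM, and in cells of 5000 to under 10000 UMIs at 1880.4 and 765.5 CPM. Fos was thus lower in the same library in which it was higher in Cxcl12-high stroma.

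Fabp4, Ctsl and genes of oxidative metabolism and stress were lower in the endothelium. Fabp4 was at 16396 and 9094 CPM, 1.80-fold lower (1.79 to 1.82), with 6541 and 4384 in the grafts, and was lower in each of the 4 bands of depth below 20000 UMIs. Ctsl, the lysosomal protease cathepsin L, was at 4888 and 2392 CPM, 2.04-fold lower (2.01 to 2.08), and at 5257 and 2809 within the sinusoid rule. Of 24 scavenger and lysosome genes 1 was called higher and 2 lower, with a median of -0.01, and of 19 adipogenic genes 2 and 3, with a median of 0.14. Cebpb was at 211 and 66.9 CPM and Hes1, a target of Notch, at 514 and 233 CPM. Of 19 metallothionein and oxidative stress genes 10 were called lower and 0 higher, and 8 and 0 once length-centred, with a median of -0.45. For the respiratory chain 36 of 40 were called lower, and 12 of 40 once length-centred. Of all genes 9.52% were called lower, and 7.99% once length-centred.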

How the data were processed

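Transcripts of 3' tagged single cells (10x Genomics, version 3.1 chemistry) were measured in 4 libraries, 1 per group, and Ctrl and Sham_D40 were compared. Per the file headers the deposited values are UMI counts per gene and barcode made with Cell Ranger 5.0.0, while the submitters' processing notes name Cell Ranger 3.1.0 and mm10. The lowest total of a deposited barcode is 500 UMIs. Libraries held between 5537 and 7668 barcodes, and 4151 cells of Ctrl and 4570 of Sham_D40 passed the limits. Antibody counts, present in 2 libraries (Sham_D40 and Graft_D40), were used only as an observation.

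Cells were gated as the report states. UMIs were summed per population and library, scaled to CPM with a pseudocount of 1 CPM for log2 ratios, and compared by an exact conditional binomial (Clopper-Pearson) 95% interval. Intervals cover counting error only. A call needed 1.5-fold, an interval off 1 and a mean of 5 CPM. Named genes were the 10 with the largest log2 ratio per gate and direction among those called at 50 CPM or more in the higher library, called alike after thinning to 1000 UMIs, beyond an allowance for free RNA from the other gate, and not mitochondrial, ribosomal, haemoglobin, immunoglobulin, sex-linked, blood-list, unnamed or gate genes. Some of these genes are not reported here. List members described for their role were chosen after their values were seen. Members and gene lists were chosen with earlier results of these data known. Transcript lengths came from GENCODE vM21, in which 32235 of 32285 genes were found. Doublets were called with Scrublet in scanpy 1.11.5 and marked 77 of 4151 and 43 of 4570 kept cells, which stayed in. The procedure was tested on simulated data: all of 100 genes changed 2-fold and 100 changed 3-fold were recovered in each gate, and 0.0851% of unchanged genes in stroma (10775 genes in all) and 0.577% in endothelium (10418 genes) were called. With a simulated length slope as steep as the one seen, 8.04% and 9.60% of unchanged genes were called before length centring and 0.274% and 0.558% after it. After it 98.98% of the endothelial genes changed 2-fold were recovered. All simulated counts carried counting error only, without spread between cells or animals, so these rates do not cover such spread. The scripts ran in Python 3.11.15 (pandas 2.3.3, scipy 1.17.1, numpy 2.4.6). Alternatives covered the level minimum, scaling, thinning, cell limits, doublets, free RNA, fold, subsets of cells, a mean over cells and transcript length, the last and the subsets without Col2a1 chosen after seeing the data.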

Additional observations from a re-analysis of the deposited data

Results flagged for a closer look

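Antibody tags were found outside the gene measurements. In Sham_D40 the feature B0301 held 2944081 UMIs, in all 5750 barcodes with a median of 338, and B0302 held 55679. In Graft_D40 B0301 held 7898 and B0302 6619225. The labels do not say what the 2 tags stain. No such feature was listed for Ctrl or Graft_D19, so Sham_D40 and Ctrl differed in this as well as in the injection. Its part in the differences between them was not tested.

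Some genes were called higher in one gate and lower in the other, and the difference between gates was not tested. Of 9588 genes tested in both gates 3 and 17 were opposite in this way, and of 9282 genes tested in Cxcl12-high stroma and in endothelium without Col2a1-high cells 2 and 27. Genes at 50 CPM or more in both populations are given. Between the gates, the log2 ratios were -0.84 in stroma and 0.61 in endothelium for Serpine2, a secreted protease inhibitor, -0.63 and 0.62 for Emp3, -0.62 and 0.59 for Igfbp3, which binds insulin-like growth factors, and -0.71 and 0.89 for Anxa1, annexin A1. Between Cxcl12-high stroma and endothelium without Col2a1-high cells they were -0.89 and 2.24 for Rgs5, a pericyte gene, -0.75 and 0.62 for Emp3, 0.85 and -0.69 for Fos, -0.71 and 0.88 for Crip1, and -0.88 and 0.94 for Anxa1. For Rgs5, 10 cells held 97.1% of the endothelial UMIs in Sham_D40 and 90.9% in Ctrl. Without the 10 highest cells of each library, the log2 ratio in the endothelial gate was 0.20 for Serpine2 and 0.26 for Igfbp3. It was 0.87 for Emp3 and Anxa1. Serpine2 was not called in endothelium without Col2a1-high cells, at 0.33. The endothelial-gate differences of Serpine2, Emp3, Igfbp3 and Anxa1 lay within the free-RNA allowance, 41.4% of the stroma level. The part of free RNA was not tested.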

How the results depend on the processing

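No paired analysis was possible because each group had 1 library, and leaving out a replicate was not possible for the same reason. Of the values recomputed for counts of genes, 42 stayed within 1.5 times and 14 moved. Genes higher in stroma (2464) numbered 548 at a minimum of 50 CPM, 690 at a fold of 2 and 978 length-centred, of which 837 were among the 2464. Genes lower in stroma (1143) numbered 1876 with no minimum level, 501 at 50 CPM and 281 at a fold of 2. Genes higher in endothelium (2330) numbered 609 at 50 CPM, 1101 after thinning, 1293 beyond the free-RNA allowance, 756 at a fold of 2 and 990 length-centred. Genes lower in endothelium (959) numbered 475 at 50 CPM, 622 beyond the allowance and 228 at a fold of 2. A higher minimum, a higher fold and the allowance call fewer genes by construction, and for thinning the cause was not tested.

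List medians reversed in 6 cases, with 1 list counted more than once, and gene ratios in 3. In the Cxcl12-rule cells, glycolysis and hypoxia genes had a median of -0.029, nuclear long non-coding RNAs -0.61, Cilp -0.53, Meg3 -0.70 and Cilp2 -0.87. Nuclear long non-coding RNAs had -1.61 length-centred and myeloid markers 0.076 after thinning, all in stroma. Of 8 measured nuclear long non-coding RNAs only 1 had a length-centred value, so that median is 1 gene. In endothelium, bone formation genes had -0.21 in sinusoid-rule cells and megakaryocyte markers 0.0802 with no minimum level. The cause was not tested. Of the other list medians 852 were within 0.25 and 191 moved, and of the gene ratios 293 and 180. Depth limits Ctrl most: 3 counts came to 0.317 CPM in its stroma, 0.525 in its endothelium and 2.79 in its cartilage-rule cells.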

Other observations

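In endothelium without Col2a1-high cells, where 22.8% of all genes were called higher, 13 of 22 contractile and activated-fibroblast genes were called higher and 0 lower, and 8 and 0 once length-centred, with medians of 0.63 and 0.44, beside 5 of 9 pericyte markers. For Rgs5, a pericyte gene, the log2 ratio was 2.24, and 0.46 without the 10 highest cells of each library. The part of RNA or cells of other types in these calls was not tested.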
